A study of Mus musculus with 2 samples.

Results

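The genes described here mostly encode the subunits of RNA polymerases I, II and III and the basal factors that place these enzymes at promoters. They were chosen by symbol among protein-coding genes, as those starting with Polr1, Polr2 or Polr3 and a letter from a to m, with Gtf2 or Gtf3, with Taf and a digit, or with Tbp or Tbpl. The rule found 78 members among 21317 protein-coding genes tested: 5 polymerase I subunits, 13 polymerase II subunits, 10 polymerase III subunits, 16 TFII factors (Gtf2), 7 TFIII factors (Gtf3) and 27 genes of the TAF and TBP family. Measured was the binding of ELF1 by ChIP-seq, given as lists of peaks. ELF1, an ETS family member, is a transcription factor that binds DNA around a GGAA core. The cells were CH12.LX, an immortalized mouse B-cell lymphoma line, from a female of the strain B10.H-2aH-4bp/Wts and of unknown age. There was 1 group of 2 biological replicates of this single line, with no other treatment or genotype, so no test between conditions was possible. Read depth is unknown from the lists, and the intervals given for shares cover counting only.

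RNA polymerase I transcribes the large ribosomal RNA precursor, polymerase II messenger RNAs, and polymerase III transfer RNAs, 5S ribosomal RNA and other short RNAs. At polymerase II promoters TFIID, built from the TATA-binding protein TBP and its associated factors (TAFs), is joined by TFIIA, TFIIB, TFIIF with the polymerase, TFIIE and TFIIH, whose helicase opens the DNA. Polymerase I uses SL1, made of TBP and its own TAFs, and polymerase III uses TFIIIA, TFIIIB and TFIIIC. Some subunits are shared: Polr2e, Polr2f, Polr2h, Polr2k and Polr2l encode proteins of all 3 enzymes, and Polr1c and Polr1d proteins of polymerases I and III.

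The B cell label was checked at a few markers. Of 8 B cell genes 7 had an ELF1 promoter peak, among them Cd79b (signal 257) and Cd37 (186), while none of 4 T cell, 4 erythroid and 3 hepatocyte genes had one. Lists on mm10 had 29086 peaks (optimal), 27399 (conservative) and 300000 weak and strong entries per replicate (relaxed), and the list on mm9, made from both replicates, had 18804.

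The sequences under the strongest peaks show what ELF1 sites at these genes look like. For each class the member with the strongest promoter peak of the mm9 list is shown over 101 bases centred on the summit with the gene's own strand written 5′ to 3′ (build NCBIM37, which is mm9). Capitals mark CCGGAA on either strand, the high-affinity form of the ETS core, or the bare core GGAA where the window held no CCGGAA. Below them stand the windows at the internal starts of Tbpl1 and Taf1 and the start site of Polr1a, chosen after their values were seen.
Polr1c, chr17:46384981-46385081, minus strand: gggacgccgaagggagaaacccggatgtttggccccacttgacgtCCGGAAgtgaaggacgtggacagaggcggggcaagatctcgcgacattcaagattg
Polr2m, chr9:71333695-71333795, minus strand: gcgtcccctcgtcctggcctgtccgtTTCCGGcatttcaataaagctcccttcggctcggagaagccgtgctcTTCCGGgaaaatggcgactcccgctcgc
Polr3b, chr10:84084988-84085088, plus strand: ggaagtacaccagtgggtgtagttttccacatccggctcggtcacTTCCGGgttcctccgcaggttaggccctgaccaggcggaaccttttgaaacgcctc
Gtf2b, chr3:142428049-142428149, plus strand: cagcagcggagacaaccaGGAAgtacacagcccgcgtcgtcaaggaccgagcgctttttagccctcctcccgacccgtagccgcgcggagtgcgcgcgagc
Gtf3c4, chr2:28696103-28696203, minus strand: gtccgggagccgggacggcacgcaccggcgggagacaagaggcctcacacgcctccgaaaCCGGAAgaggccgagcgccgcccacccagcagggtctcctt
Taf12, chr4:131830235-131830335, plus strand: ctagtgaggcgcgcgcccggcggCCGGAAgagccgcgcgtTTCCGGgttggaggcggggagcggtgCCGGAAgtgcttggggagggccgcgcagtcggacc
Tbpl1, chr10:22451220-22451320, minus strand: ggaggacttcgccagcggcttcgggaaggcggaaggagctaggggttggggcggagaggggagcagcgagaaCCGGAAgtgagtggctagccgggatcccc
Taf1, chrX:98727960-98728060, plus strand: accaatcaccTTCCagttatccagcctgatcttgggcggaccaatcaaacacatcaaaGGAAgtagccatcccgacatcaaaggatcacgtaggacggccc
Polr1a, chr6:71858997-71859097, plus strand: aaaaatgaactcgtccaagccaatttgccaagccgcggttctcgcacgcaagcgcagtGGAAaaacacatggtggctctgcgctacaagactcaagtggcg

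Most genes of the transcription machinery carried ELF1 at the promoter. Bound here means that the RefSeq 5′ end of a gene had an optimal summit at most 1 kb away, which held for 39.4% of all protein-coding genes tested. Of the 78 members 65 were bound (83.3%, 95% exact interval 73.2% to 90.8%). All 13 polymerase II subunit genes, all 10 polymerase III subunit genes and all 7 TFIII genes were bound in this list. Polymerase I subunits were bound in 4 of 5 cases, TFII factors in 12 of 16 (47.6% to 92.7%) and the TAF and TBP family in 19 of 27 (70.4%, 49.8% to 86.2%). The 3 polymerases together gave 27 of 28 and the basal factors 38 of 50 (76.0%, 61.8% to 86.9%). Basal factors here are all Gtf2, Gtf3, Taf, Tbp and Tbpl genes of the rule, also those with other roles, such as the TFII-I genes. Of the 12 unbound basal factor genes 10 were TFII-I family genes or paralogs of a core factor, and the others were Taf1 and Taf6. This group of 10 was made after the values were seen and holds only genes unbound in this list. The paralogs Taf5l (201) and Taf6l (39.5) were bound and stand outside it, so it gives no share of bound paralogs. The split was also less clear elsewhere: of the same 10 genes 4 were bound in the mm9 list and 2 when every RefSeq start counted. The mm9 list also left Taf1d, Taf4, Taf6l and Gtf3c6 unbound.

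**Figure D1:**
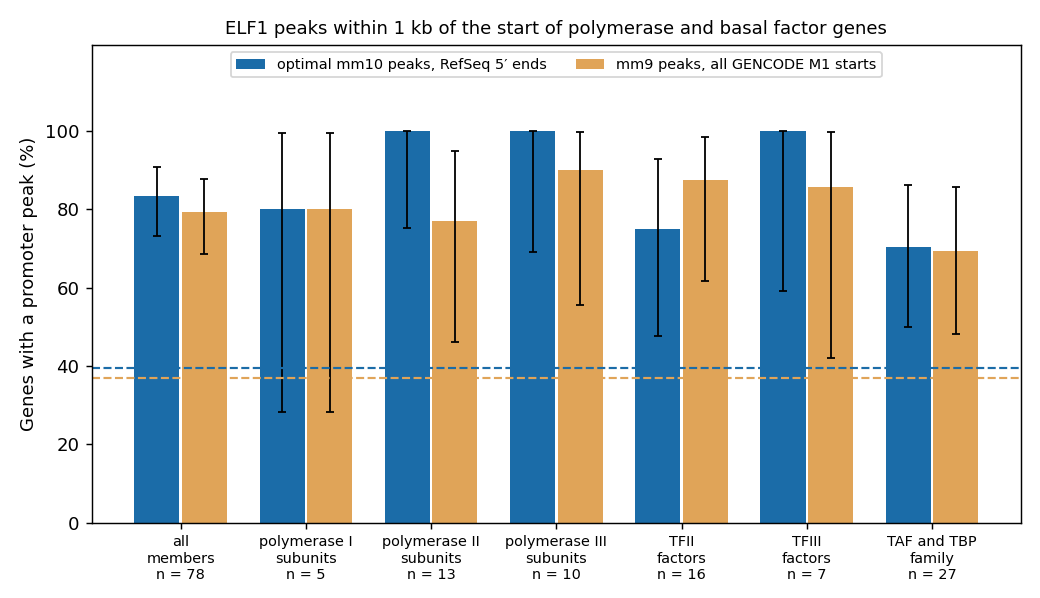
Share of genes with an ELF1 peak summit within 1 kb of the start, by class, in the optimal mm10 list with RefSeq 5′ ends (blue) and the mm9 list with all GENCODE M1 starts (orange); bars are percentages, error bars exact 95% binomial intervals, n counts members in mm10 (77 of the 78 members, and 26 of the TAF and TBP family, were matched in GENCODE M1), and dashed lines are the shares of all protein-coding genes, 39.4% and 36.8%. Every class stands above the lines, from 70.4% to 100% in mm10 and from 69.2% to 90.0% in mm9, and the interval of the 5 polymerase I subunits reaches below them.

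Peaks at the bound members were strong compared with other promoter peaks of the same list. Signal is the height the peak caller gave, in units that are not stated and that differ between lists. The strongest promoter peak of the 65 bound members had a median signal of 201, from 15.9 at Taf1d to 534 at Gtf2b, against a median of 97.1 over all 8405 bound genes. Of the members' peaks 36 of 65 (55.4%) fell in the strongest decile of the optimal list, which began at a signal of 173, against 29.8% for all bound genes. A signal below 97.1 was seen at 17 members.

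Signals varied widely within each class. The class medians were 142 for polymerase I, 132 for polymerase II, 245 for polymerase III, 273 for TFII, 203 for TFIII and 166 for the TAF and TBP family. Polymerase II subunits ranged from 33.3 to 392 and polymerase III subunits from 48.0 to 422, so the classes overlapped over most of their range. The median of polymerase III was above that of polymerase II in each replicate's own list, with 105 against 48.6 in replicate 1 and 138 against 83.8 in replicate 2. It was also above it in the mm9 list, with 394 against 284. Those mm9 medians cover only the genes bound there, 9 of 10 for polymerase III and 10 of 13 for polymerase II. The mm9 list comes from the same replicates and is not independent of the others. The difference between the classes was not tested, because members are not replicates of a condition.

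**Figure D2:**
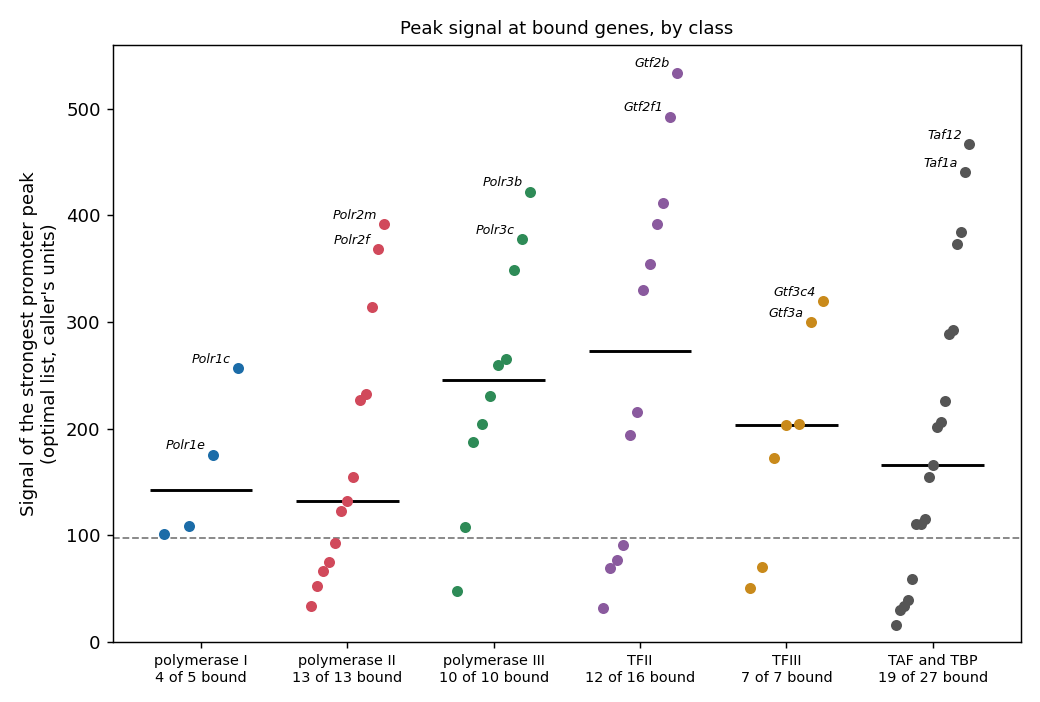
Signal of the strongest promoter peak of each bound member in the optimal list, by class (vertical axis in the caller's units); each point is a gene, black bars are class medians, the dashed line is the median of 97.1 over all bound protein-coding genes, and the 2 strongest genes of each class are named. Medians run from 132 in polymerase II to 273 in TFII, and each class spreads over a wide range.

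Among polymerase I subunits, Polr1c, which is shared with polymerase III, had the strongest peak. Its signal was 257 in the optimal list, 125 in replicate 1 and 129 in replicate 2, on chromosome 17 from 46247978 to 46248170 (mm10). Polr1e, a subunit that helps initiation, had 175 in the optimal list, 73.3 in replicate 1 and 100 in replicate 2. Polr1d, also shared with polymerase III, had 109, 51.3 and 56.2, with the summit 777 bp downstream of the 5′ end. Polr1b, which encodes the second largest subunit, had 101.1, 29.7 and 73.0. The 4 peaks were present in both replicates, and each was higher in replicate 2.

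Polr1a, which encodes the largest subunit of polymerase I, was the only polymerase subunit gene without a peak in the optimal list. A weak entry stood 44 bp from its 5′ end in the relaxed lists, with 23.0 when both replicates were pooled and 8.26 and 15.3 in replicates 1 and 2, and the conservative list held a peak of 21.7 within 1 kb. The mm9 summit nearest a GENCODE start of this gene was 17841 bp away. Its optimal peak nearest the 5′ end lay 21.2 kb downstream, within the gene, with a signal of 39.3.

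All 13 polymerase II genes were bound in mm10. Polr2m, which encodes the polymerase II associated protein Gdown1, led with 392 in the optimal list, 174 in replicate 1 and 219 in replicate 2, on chromosome 9 from 71485771 to 71486091. Polr2f, a subunit of all 3 polymerases, had 368, 161 and 207. Polr2j, an assembly subunit, had 314, 149 and 161. Polr2h, also shared by all 3, had 233, 102 and 130. The genes Polr2k (226), Polr2g (154), Polr2c (132), Polr2d (123), Polr2i (92.6) and Polr2l (75.2) followed. Polr2i, bound in mm10 only, had 47.0 in replicate 1 and 47.5 in replicate 2.

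The genes of the 2 large catalytic subunits were among the weaker ones. Polr2a, whose product carries the heptad repeats of the C-terminal domain, had 66.3 in the optimal list, 25.95 in replicate 1 and 46.5 in replicate 2, and it had 3 optimal summits within 1 kb. Polr2b, the second largest subunit gene, had 52.1, 26.9 and 28.2. Polr2e, shared by all 3 enzymes, was lowest with 33.3, 20.8 and 10.7, and no conservative peak overlapped it. The 5 genes of subunits common to all polymerases thus ran from 33.3 to 368, with a median of 226.

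Polymerase III genes were bound in all 10 cases, 8 of them in the strongest decile. Polr3b, the second largest subunit gene, had 422 in the optimal list, 189 in replicate 1 and 233 in replicate 2, on chromosome 10 from 84622143 to 84622433. Polr3c, of the trimer that opens the promoter, had 378, 186 and 190. Polr3e had 349, 136 and 214, with the summit 978 bp downstream of the 5′ end, near the edge of the window. Polr3a, the largest subunit gene, had 265, 120 and 143. Unlike the largest subunit genes of the other two enzymes, it lay in the strongest decile. Polr3d (260), Polr3k (231), Polr3g (187), Polr3gl (107) and Polr3f (48.0) were among the others. Polr3f had the largest imbalance of this class, 11.7 in replicate 1 and 42.5 in replicate 2.

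The TFII factors held the 2 strongest member peaks. Gtf2b, which encodes TFIIB, had 534 in the optimal list, 252 in replicate 1 and 288 in replicate 2, on chromosome 3 from 142764962 to 142765385. Gtf2f1, the large TFIIF subunit, had 493, 233 and 265, and Gtf2f2, the small one, had 411, 192 and 219. Gtf2e2, of TFIIE, had 392, 170 and 221. These 4 genes stood at percentiles 94.8 to 99.6 of all bound protein-coding genes. Other members of the preinitiation complex were Gtf2h1 (354), Gtf2h3 (330), Gtf2a2 (216) and Gtf2e1 (194).

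TFIIH, the factor with the promoter-opening helicase, was bound at all 5 of its Gtf2h genes, but unevenly. Besides Gtf2h1 and Gtf2h3, Gtf2h2 had a signal of 90.5 and Gtf2h5 of 69.0. At Gtf2h1, Gtf2h3 and Gtf2h5 the summit was nearer the 5′ end of a neighbouring gene. Gtf2h4 was lowest with 31.7 in the optimal list and 19.2 in replicate 2, and no entry lay within 100 bp of its summit in replicate 1. Replicate 1 did hold an entry of 16.2 within 1 kb of its 5′ end. Gtf2a1, the large TFIIA subunit gene, had 77.0, 31.8 and 46.3.

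The TFIII genes were bound in all 7 cases. Gtf3c4, a subunit of TFIIIC, which binds the internal promoters of transfer RNA genes, had 319 in the optimal list, 144 in replicate 1 and 172 in replicate 2, on chromosome 2 from 28840492 to 28840798. Gtf3a, the gene of the 5S factor TFIIIA, had 300, 140 and 157. Gtf3c1 had 204, 96.4 and 107, and Gtf3c2 had 203, 93.2 and 109. Gtf3c6 (172), Gtf3c5 (70.4) and Gtf3c3 (49.97) were lower, Gtf3c3 with 12.0 in replicate 1 and 39.6 in replicate 2.

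In the TAF and TBP family the leading peaks belonged to TFIID and SL1 genes. Taf12, a histone-fold subunit of TFIID and of the coactivator SAGA, had 466 in the optimal list, 220 in replicate 1 and 248 in replicate 2, on chromosome 4 from 132274224 to 132274488. Taf1a, of the polymerase I factor SL1, had 440, 207 and 233. Taf7 of TFIID had 384, 180 and 202, and Taf2 had 373, 177 and 197. All 4 lay in the strongest decile of the list. The SL1 genes were bound in 4 of 4 cases, with Taf1c at 288, Taf1b at 111 and Taf1d at 15.9, so the set held both a leading peak and the weakest member peak. Taf1d had no entry within 100 bp of its summit in replicate 1 and 14.0 in replicate 2. The strongest replicate 1 entry within 1 kb of its 5′ end was 8.72.

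The genes of TFIID itself were bound in 11 of 13 cases. Below the leading ones lay Taf10 (292), Taf8 (226), Taf5 (166), Taf3 (155), Taf11 (115), Taf9 (110), Taf13 (59.2) and Taf4 (29.5). Tbp, of the TATA-binding protein used by all 3 polymerases, had 206 in the optimal list, 99.0 in replicate 1 and 109 in replicate 2. Taf15, an RNA-binding protein of the FET family, had 33.1 in the optimal list and 28.1 in replicate 2, and no entry within 100 bp in replicate 1. The strongest replicate 1 entry within 1 kb of its 5′ end was 13.6. Taf6 had no optimal peak within 1 kb, the nearest lying 6491 bp away, and the nearest mm9 summit 9463 bp from a GENCODE start.

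Core factors and their paralogs were set side by side. Taf7 (384) was bound, while its testis-rich paralog Taf7l and the Taf7-like gene Taf7l2 had no peak within 1 kb in any of the optimal, conservative, relaxed or mm9 lists. Gtf2a1 (77.0) was bound, and its germ cell form Gtf2a1l had no optimal or mm9 peak there and only a pooled relaxed entry of 5.84. Taf9, with 110 in the optimal list, 47.0 in replicate 1 and 65.9 in replicate 2, was bound, though its summit was nearer the 5′ end of Rad17. Taf9b had no entry within 1 kb in any list.

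Other genes did not follow that split. Tbp (206) was bound, and of its paralogs Tbpl1 had a stronger peak, of 420 in the optimal list and 839 against 296 in the mm9 list, though at an internal start, while the oocyte-rich Tbpl2 had its nearest optimal peak 118630 bp away. Taf5 and Taf5l, its counterpart in SAGA, were both bound. Taf5 had 166 in the optimal list, 81.0 in replicate 1 and 82.8 in replicate 2, and Taf5l had 201, 74.0 and 126. Polr3g and Polr3gl, alternative subunits of polymerase III, were both bound too. Polr3g had 187, 84.2 and 97.2, and Polr3gl had 107, 39.5 and 68.0. Taf6l, the SAGA counterpart of Taf6, had 39.5 in the optimal list, with 3.11 in replicate 1 and 28.3 in replicate 2, while Taf6 had no peak. Taf4b, the gonad-rich paralog of Taf4, was unbound in the optimal list, but a pooled relaxed entry of 45.5 lay 58 bp from its 5′ end, with 23.4 and 26.5 as the strongest entries within 1 kb in replicates 1 and 2. The conservative list and the mm9 list (65.0) also had a peak there. Taf4 itself had 29.5 in the optimal list, 9.69 in replicate 1 and 20.3 in replicate 2. The status of Taf4b therefore depends on the list used.

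Some unbound members had a peak at another start of the gene. Tbpl1, which encodes a TBP-related factor, had a signal of 420 in the optimal list, 194 in replicate 1 and 226 in replicate 2, on chromosome 10 from 22731280 to 22731660. The summit lay 16 bp from a RefSeq transcript start that is 1219 bp from the 5′ end of the gene. Taf1, the largest TFIID subunit gene, had a peak of 71.3 (8.08 in replicate 1 and 44.4 in replicate 2) 23 bp from a start 5163 bp inside the 5′ end. Gtf2ird2, of the TFII-I family, had 133 in the optimal list and 60.1 in replicate 1, with no entry within 100 bp in replicate 2, 28 bp from a start 1481 bp from the 5′ end. With every start of the RefSeq promoter table added, a setting chosen after seeing the data, 68 of 78 members were bound, against 42.7% of all protein-coding genes.

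The TFII-I genes Gtf2i, Gtf2ird1 and Gtf2ird2, neighbours on chromosome 5, were all unbound at the 5′ end in mm10. TFII-I is a signal-regulated transcription factor and not part of the basal polymerase II machinery. Gtf2ird1 had only a relaxed entry 108 bp from the 5′ end, with 15.2 in the pooled list and strongest entries of 7.18 and 8.98 within 1 kb in replicates 1 and 2. Gtf2i had no entry within 1 kb in any mm10 list used, and in the mm9 list a peak of 36.1 lay 107 bp from a GENCODE start.

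On the older build, the mm9 list with all GENCODE M1 starts gave 61 bound of 77 matched members (79.2%, 95% exact interval 68.5% to 87.6%), against 36.8% of 22367 protein-coding genes. Taf1a had no match. In both builds 56 members were bound and 8 were unbound (Gtf2a1l, Gtf2ird1, Polr1a, Taf6, Taf7l, Taf7l2, Taf9b and Tbpl2). The 5 bound in mm9 only were Tbpl1 (signal 839), Gtf2ird2 (160), Taf1 (94.9), Taf4b (65.0) and Gtf2i (36.1). The 8 bound in mm10 only had a median optimal signal of 43.8, against 205 for those bound in both. They were Polr2b, Polr2e, Polr2i, Polr3f, Taf1d, Taf4, Taf6l and Gtf3c6. Gtf3c6 stood apart among them with 172 in the optimal list, 67.3 in replicate 1 and 106 in replicate 2, while the nearest mm9 summit was 10625 bp from its GENCODE starts. On mm9, polymerase II subunits were bound in 10 of 13 cases, polymerase III subunits in 9 of 10 and TFIII factors in 6 of 7, so their full counts hold for the optimal list. TFII factors were bound in 14 of 16, polymerase I subunits in 4 of 5 and the TAF and TBP family in 18 of 26.

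Most of the members' promoter peaks were present in both replicates. Of the 65 promoter peaks 62 (95.4%) had an entry within 100 bp in both replicates, near the 93.5% of all bound genes. With a limit of 200 bp 64 of the 65 had one. Signals were higher in replicate 2 at 57 of the 62, with a median ratio of 1.203, near the 1.28 over all bound genes, on scales that can differ between the lists. Across these 62 peaks log2 signals had a Pearson correlation of 0.906, against 0.915 over 7860 peaks of all bound genes, which describes peaks of the same libraries and not independent samples. The ratio ran from 0.514 at Polr2e to 9.11 at Taf6l. The value at Taf6l depends on the 100 bp limit for matching entries, since replicate 1 had a stronger entry, of 16.9, elsewhere within 1 kb. A conservative peak overlapped 63 of the 65, near the 93.1% of all bound genes, the exceptions being Polr2e and Taf6l. At 13 of the 65 members 2 or more optimal summits lay within 1 kb, near the 23.8% of all bound genes.

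**Figure D3:**
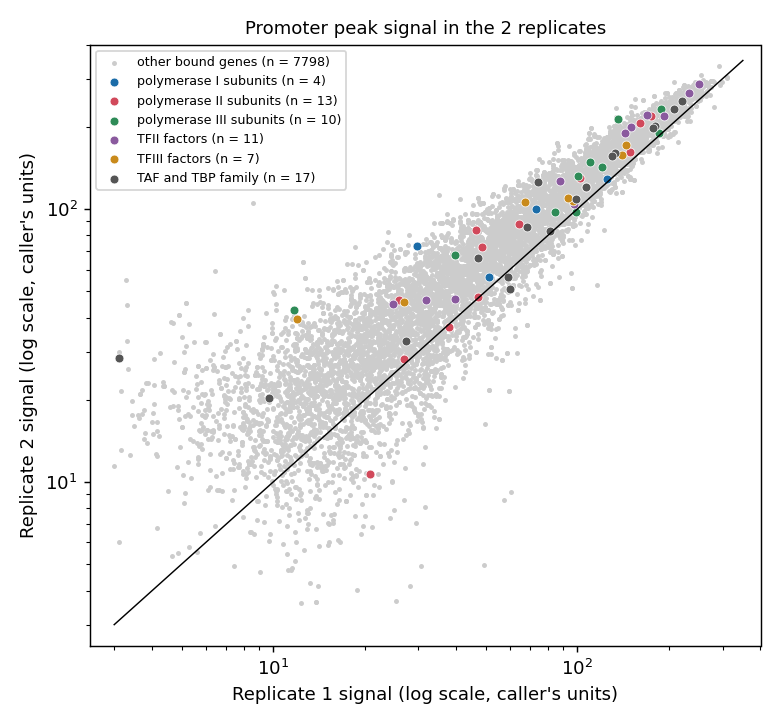
Signal of the strongest promoter peak in replicate 1 (horizontal) and replicate 2 (vertical), both on log scales in the caller's units, for the 62 bound members with an entry in both (coloured by class) and for other bound genes (grey); the black line marks equal signal. Members lie mostly above the line, with a median ratio of 1.203, and the point farthest from it is Taf6l at 3.11 and 28.3.

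Summits lay close to the annotated starts. The median distance from the 5′ end was 43 bp over the 65 bound members, against 85 bp over all bound genes, and 48 of 65 (73.8%) lay within 100 bp, against 54.2% of all bound genes. The summit was upstream of the 5′ end at 38 of 65 members, near the 53.9% of all bound genes. The medians by class ran from 34 bp in polymerase II to 59 bp in the TAF and TBP family. Far from the start were Polr3e (978 bp downstream), Polr1d (777 bp downstream) and Taf4 (559 bp upstream). At Polr3e the mm9 summit lay 163 bp from a GENCODE start, and at Polr1d 146 bp from one.

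**Figure D4:**
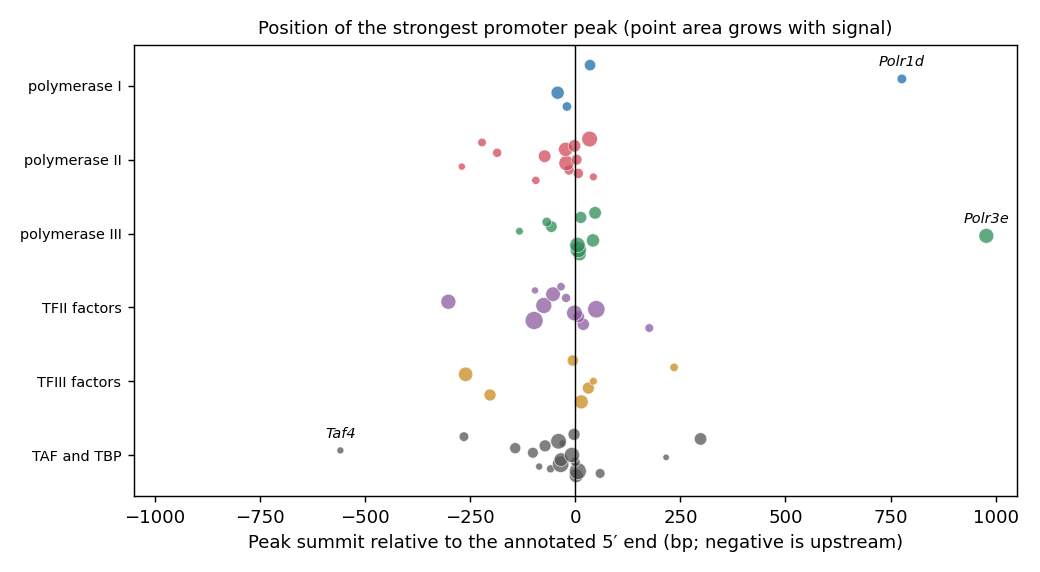
Distance of the strongest promoter peak's summit from the annotated 5′ end (horizontal, bp, negative is upstream) for the 65 bound members, one row of points per class, with point area growing with signal. Most points sit near 0, with a median distance of 43 bp, and the 3 genes named lie 559 to 978 bp away.

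Several members shared their peak with a neighbour. At 20 of the 65 bound members (30.8%) the summit also lay within 1 kb of another gene's 5′ end, close to the 23.6% of all bound genes. All 20 neighbours nearest the summit were on the opposite strand, with starts 17 to 495 bp apart (median 81.5 bp), and at 12 of them the summit was nearer the neighbour. The matching opposite-strand share over all bound genes is not given here, so this is not read as a trait of the members. Among the strongest shared peaks were those of Polr3c with Rnf115, Polr2f with 1700088E04Rik, Gtf2h1 with Hps5, Gtf2h3 with Eif2b1, a translation initiation gene, and Gtf3c4 with Ddx31. The 12 with the summit nearer the neighbour were Polr1c, Polr2h, Polr2l, Polr3f, Gtf2h1, Gtf2h3, Gtf2h5, Gtf3c1, Gtf3c4, Taf5l, Taf9 and Taf11. The median signal was 191 at shared and 205 at unshared peaks. No peak list can say which of the 2 genes such a site serves.

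The ETS word CCGGAA was common under the members' peaks. Either strand was searched, up to 50 bp from each of the 61 mm9 promoter summits. Of these 33 had it (54.1%, 95% exact interval 40.9% to 66.9%), against 37.4% of all 8790 mm9 promoter peaks. The sets are not alike: each member gave only its strongest peak, while the comparison held every promoter peak, weaker additional ones included. How far this widens the differences given here was not tested. Windows of the same length centred 150 bp to each side held it in 7.38% of cases at members and 5.46% at all promoter peaks. The longer word CCGGAAGT, which contains the first, stood at 16 members (26.2%) and 11.6% of all promoter peaks. The nearest CCGGAA was centred a median of 11.5 bp from the summit, and at 31 of the 33 within 25 bp. The bare core GGAA, contained in both words, was found at 57 of 61 (93.4%), near the 90.6% of all promoter peaks.

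The word went with signal, and the members' peaks were stronger than most. Member peaks with CCGGAA had a median mm9 signal of 333 and those without it 187. Over all mm9 promoter peaks the medians were 204 and 79.7, and the median of all was 109, against 296 for the members. The member values again rest on the strongest peak of each gene, and those of all promoter peaks do not. The part of signal in the higher share of the word at members was not tested. Taf12 and Gtf3c1 held 3 separate copies each within 50 bp of the summit. Taf7 was also counted with 3, but those centred 4.5 and 6.5 bp from the summit overlap on opposite strands. Gtf2b, with the strongest member peak in both builds, held none and had a single GGAA, seen in the sequence above. The summits of Polr2a, Polr3e, Gtf2h5 and Gtf2i held no GGAA within 50 bp.

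**Figure D5:**
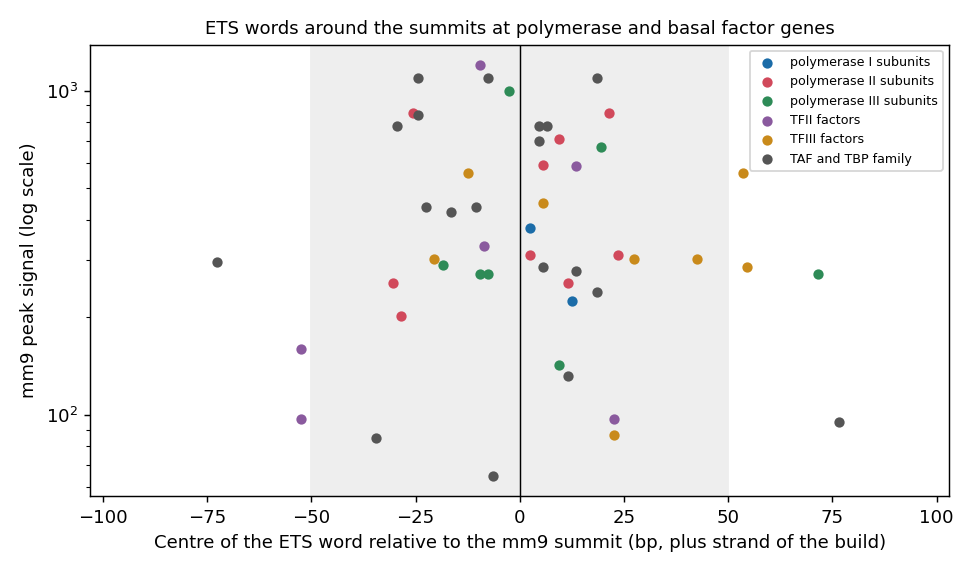
Position of each CCGGAA word relative to the mm9 summit (horizontal, bp on the plus strand, word centre) against the mm9 peak signal (vertical, log scale, caller's units) for member promoter peaks, coloured by class; the grey band is the 50 bp on each side used for counting. Words crowd near the summit, with a median distance of 11.5 bp for the nearest word of the 33 peaks that hold one in the band.

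In mm10 the same word was sought in the RefSeq promoter sequences of assembly GRCm38.p6, which run from 250 bases before to 50 after each start and hold 68 of the 78 members. CCGGAA stood in the promoters of 32 of 56 bound members (57.1%), against 38.5% of all bound protein-coding genes. It stood in 3 of 12 unbound members, against 9.68% of all unbound genes. Unbound refers here to the 5′ end of the gene, and the starts searched can lie elsewhere. At Tbpl1, Taf1 and Gtf2ird2, unbound at the 5′ end, an optimal peak lay at the start in this set. The 3 of 12 is therefore not a share at promoters without ELF1. Over all protein-coding genes of the table the share was 21.2%.

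CpG-rich promoters were the rule among the members, bound or not. CpG content was the observed over expected ratio in 1 kb around the mm9 gene start, for 79 GENCODE genes that match the 77 members (Taf9 and Polr2m each match 2). Its median was 0.775 at bound and 0.735 at unbound members, against 0.745 and 0.326 at all bound and unbound genes. With all genes split into 3 equal groups by this ratio, in the highest group 43 of 51 member entries were bound (84.3%), against 64.6% of all genes there. In the middle group 20 of 27 were bound (74.1%), against 37.5%. In the lowest group stood only Tbpl2, which was unbound, against 8.14% bound of all genes. The groups are wide, from 0.3115 to 0.7078 in the middle one, and members were not matched to other genes within them. The part of CpG content in the higher share at members was not tested.

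Peaks away from the 5′ ends of genes were also counted. One at 2 to 50 kb, not within 2 kb of any protein-coding gene's 5′ end, was found for 51 of 78 members (65.4%). The share was 50.9% of all protein-coding genes. Peaks at other starts of a gene were not left out of either share. The strongest lay 16.9 kb from Taf13, with 381 in the optimal list, 169 in replicate 1 and 210 in replicate 2, above the 59.2 of that gene's own promoter peak. Taf1a had one of 314 at 43.4 kb, Taf15 one of 210 at 32.6 kb and Taf8 one of 210 at 47.5 kb. Of the unbound genes Gtf2ird1 had 5 distal peaks, the strongest of 129 at 35.1 kb. The distal peak of Taf1 is the one at its internal start. Polr2g and Taf6l counted the same distal peak, of 40.6. Whether such peaks act on these genes cannot be read from the lists.

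Other genes of the same machinery, outside the symbol rule, were bound in 43 of 48 cases (89.6%), against 39.4% of all protein-coding genes tested. The median signal was 135 at the bound ones, against 97.1 over all bound genes. Polymerase I genes under other names gave 4 of 5, with Znrd1 (138), Cd3eap (70.1), Twistnb (52.9) and the initiation factor Rrn3 (164) bound and the rDNA factor Ubtf unbound. Polymerase III partners gave 9 of 10, led by the subunit gene Crcp (280) and the snRNA activator gene Snapc2 (241), with Snapc3 unbound. The TFIIIB genes Bdp1 (104), Brf2 (59.2) and Brf1 (32.5) were bound. The remaining TFIIH genes gave 4 of 5, with the kinase Cdk7 (476) and the helicases Ercc3 (364) and Ercc2 (72.1) bound and Mnat1 unbound. Elongation genes gave 13 of 14, led by Nelfe (546), Ccnt1 (356) and Cdk9 (306), with Nelfcd unbound. Genes of polymerase assembly gave 5 of 6 and TBP regulators 3 of 3. The mitochondrial transcription genes, which use a separate polymerase, gave 5 of 5, led by that polymerase's gene Polrmt (448).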

How the data were processed

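ELF1 ChIP-seq peaks came from 2 biological replicates of 1 group. Per the deposited README text, the authors made each replicate's relaxed list from its mm10 alignments and 1 further input file, the optimal and conservative lists from the relaxed lists by the irreproducible discovery rate, and the mm9 list from both replicates' alignments. Column 7 of the deposited lists holds a signal per peak, on a scale that is not stated. Aligner and peak caller: not given in the sources used here. It was used to rank and describe peaks, and the optimal and pooled lists give the same value for a peak.

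Starts were the 5′ ends of RefSeq genes (GRCm38.p6). The strand came from GENCODE M1 for 18392 (same symbol) and 2184 (synonym) of 21900 protein-coding genes and from the RefSeq promoter table for 959, while 365 without one were left out. The 2 sources disagreed at 48 genes, none a member. Genes on chromosomes with optimal peaks were tested (21317). No coordinates are printed for Polr2d, Taf4b and Taf7, and the values of 1 member are not reported here. Builds were not mixed. mm9 values used GENCODE M1 and NCBIM37.

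Members and lists were chosen with earlier results of these data known, so counts and medians are descriptions beside all protein-coding genes. Optimal and replicate values are given for the 4 strongest members of each class, members without an entry within 100 bp in a replicate, and members whose status differed between builds. Paralogs are set side by side. Shares have exact (Clopper-Pearson) 95% binomial intervals, which treat genes as independent. Alternatives were windows of 500 bp and 2 kb, the conservative list, the stronger 50% of peaks, peak overlap, each replicate's strongest 29086 entries, the mm9 list, and other distances and words. Status calling was tested on simulated data. Python 3.11.15, pandas 2.3.3, numpy 2.4.6 and scipy 1.17.1 were used.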

Additional observations from a re-analysis of the deposited data

How the results depend on the processing

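Of 87 values under an alternative, 82 stayed within the 95% interval of the main value and 5 did not. Polymerase I subunits went from 80.0% to 100% bound in the conservative list, where Polr1a had a peak, and ranged from 80.0% to 100% when a replicate was left out, the higher value without replicate 1. Leaving out replicate 1 also ended the binding of Polr2e and gave binding to Taf4b. Leaving out replicate 2 ended that of Taf4 and Taf1d and gave binding to Taf4b. Members with a distal peak went from 65.4% to 37.2% with an outer limit of 20 kb and to 84.6% with 100 kb, against 29.9% and 66.6% of all protein-coding genes. The share of peaks with an ETS word went from 54.1% with CCGGAA to 93.4% with GGAA, which is a shorter word. The stronger 50% of the optimal peaks left out Taf6l, Taf15, Taf4, Taf1d, Gtf2h4 and Polr2e. Every member had a strand, so counting genes of unknown strand changed nothing for them. No paired analysis was possible because there is 1 group. Classes of 5 to 27 genes give wide intervals, and weak peaks such as those of Taf1d and Polr2e limit the full counts.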
